A study of Mus musculus with 30 samples.

Results

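The genes described here are 8 transcripts associated with monocytes that enter the injured brain, Ly6c2, Plac8, Chil3, Vcan, Ms4a4c, Plbd1, Atp8b4 and Lyz2, out of 19479 genes that had a single symbol on the array. They were matched by symbol in the platform annotation. The set itself was chosen by its log2 intensities across the 6 groups, as known from earlier results of these arrays, so that their levels across cell types are given as a description and not as a test. Each of the 8 had exactly 1 row in the table of intensities, and all 8 were tested, with none removed by a filter on low values. The arrays came from myeloid cells of the ischemic hemisphere of TREM1-/- (KO) and TREM1+/+ (WT) male C57BL/6 mice aged 8 to 10 weeks. TREM1 is a myeloid receptor that amplifies inflammatory signalling. All mice, WT included, had the middle cerebral artery occluded for 45 min and were killed after 48 h of reperfusion, and no group without ischemia is part of the comparison. Cells were sorted after myelin removal as macrophages (CD45 high, CD11b positive, Ly6G negative; 6 KO and 3 WT arrays), neutrophils (CD45 high, CD11b positive, Ly6G positive; 5 KO and 4 WT arrays) and microglia (CD45 low, CD11b positive; 6 KO and 6 WT arrays). The labels give the microglia gate as Ly6G positive too. They do not say whether an array held cells of 1 mouse or of several, nor whether the knockout is limited to a cell type. P-values measure the spread between arrays that the labels call biological replicates.

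Classical monocytes of the mouse leave the bone marrow through the chemokine receptor CCR2, carry a high level of the surface antigen Ly6C, and become macrophages or dendritic cells in inflamed tissue. After stroke they enter the ischemic hemisphere together with neutrophils, whereas microglia are resident cells of separate, yolk sac origin. Monocytes and neutrophils share a myeloid precursor, and several of the genes below are known from both. Ly6c2 encodes the antigen itself, a small protein held on the membrane by a lipid anchor. Ms4a4c encodes a multi-pass membrane protein of the MS4A family. Atp8b4 encodes a phospholipid-transporting ATPase, and Plac8 encodes a small cysteine-rich protein. Chil3 (Ym1), Vcan and Lyz2 encode secreted products, in turn a chitinase-like protein, the chondroitin sulfate proteoglycan versican and the bacteriolytic enzyme lysozyme M. Plbd1 encodes a phospholipase B-like protein of lysosomes and granules.

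In the GRCm38.p6 annotation the 8 genes lie on 8 chromosomes, 15 (Ly6c2), 5 (Plac8), 3 (Chil3), 13 (Vcan), 19 (Ms4a4c), 6 (Plbd1), 2 (Atp8b4) and 10 (Lyz2). Ly6c2, Chil3 and Lyz2 each have a near copy on the same chromosome that the array also reports, namely Ly6c1, Chil4 and Lyz1. Probes for one gene of such a pair may bind transcripts of the other, so the values of these 3 members are uncertain to that extent. The promoters of the 3 pairs are shown because the members and their copies are compared repeatedly below. The sequences run from 250 bases before to 50 bases after the first-listed RefSeq start, 5′ to 3′ on the gene's strand in GRCm38.p6. Capitals mark AGGAAGT or its reverse complement, the core bound by ETS factors such as PU.1, the product of Spi1 and a regulator of myeloid genes.
Ly6c2, chr15:75111922-75112221, minus strand: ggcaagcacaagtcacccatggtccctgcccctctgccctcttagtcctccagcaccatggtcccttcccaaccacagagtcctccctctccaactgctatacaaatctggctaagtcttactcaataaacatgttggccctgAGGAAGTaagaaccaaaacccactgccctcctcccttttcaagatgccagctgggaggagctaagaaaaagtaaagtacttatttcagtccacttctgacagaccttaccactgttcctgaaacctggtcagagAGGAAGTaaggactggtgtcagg
Ly6c1, chr15:75048788-75049087, minus strand: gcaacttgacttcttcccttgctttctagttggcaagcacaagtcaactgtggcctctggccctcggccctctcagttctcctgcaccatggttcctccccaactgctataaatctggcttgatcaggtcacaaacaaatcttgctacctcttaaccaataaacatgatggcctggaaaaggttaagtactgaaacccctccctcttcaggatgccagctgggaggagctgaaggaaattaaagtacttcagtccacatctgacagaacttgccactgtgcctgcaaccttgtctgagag
Chil3, chr3:106167515-106167814, minus strand: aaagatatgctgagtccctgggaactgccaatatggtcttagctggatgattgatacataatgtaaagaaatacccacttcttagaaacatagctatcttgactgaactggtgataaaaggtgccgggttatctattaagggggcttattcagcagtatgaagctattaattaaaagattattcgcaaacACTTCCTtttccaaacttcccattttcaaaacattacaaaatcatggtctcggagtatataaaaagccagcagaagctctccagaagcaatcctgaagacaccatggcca
Chil4, chr3:106219430-106219729, minus strand: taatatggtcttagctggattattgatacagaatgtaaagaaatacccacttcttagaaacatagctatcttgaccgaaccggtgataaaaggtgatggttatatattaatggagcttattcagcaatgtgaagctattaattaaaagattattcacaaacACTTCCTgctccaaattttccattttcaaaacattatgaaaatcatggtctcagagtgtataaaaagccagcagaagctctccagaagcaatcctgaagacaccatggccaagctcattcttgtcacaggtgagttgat
Lyz2, chr10:117282223-117282522, minus strand: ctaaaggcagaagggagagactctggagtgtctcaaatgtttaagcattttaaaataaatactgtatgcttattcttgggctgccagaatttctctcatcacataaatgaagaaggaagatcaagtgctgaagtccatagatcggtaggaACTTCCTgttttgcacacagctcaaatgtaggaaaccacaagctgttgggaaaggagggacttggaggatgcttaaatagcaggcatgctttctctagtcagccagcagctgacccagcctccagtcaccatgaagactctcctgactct
Lyz1, chr10:117292819-117293118, minus strand: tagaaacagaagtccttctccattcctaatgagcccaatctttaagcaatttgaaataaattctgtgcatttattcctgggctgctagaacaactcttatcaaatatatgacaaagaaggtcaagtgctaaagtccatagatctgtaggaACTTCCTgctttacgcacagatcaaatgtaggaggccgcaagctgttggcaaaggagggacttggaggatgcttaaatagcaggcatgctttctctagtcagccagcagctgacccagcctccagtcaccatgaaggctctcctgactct
Of 266 aligned bases 208 were identical between Ly6c2 and Ly6c1, and of 271 aligned bases 251 were identical between Chil3 and Chil4. Between Lyz2 and Lyz1 249 of 298 aligned bases were identical. The 52 other pairs among these 11 promoters had 128 to 167 identical bases, so the copies share much of their upstream sequence and the other members do not resemble each other there. The motif AGGAAGT, searched on both strands, was found in 4 of the 8 members' promoters (Ly6c2, Chil3, Atp8b4 and Lyz2) and in 9.57% of 27025 mouse promoters of the same length. In Lyz2 and in Lyz1 it begins at the same place, 100 bases before the start, as the reverse complement ACTTCCT in the sequences shown. Ly6c2 has a match 107 bases before and another 27 bases after its start, and the window of Ly6c1 shown has none, although its other annotated start has one. TATAAA was found in Chil3 alone among the members, against 14.2% of all promoters. Neither TTGCNNAA, a C/EBP-type motif (10.8% of all promoters), nor GAAANNGAAA, an interferon response motif (3.49%), was found in the first-listed window of any of the 8. These matches describe letters in a window and not binding.

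Intensities are given as log2 of the values made by the authors with RMA, and their precision is limited by how many arrays each group has. The median intensity per array lay between 83.7 and 120.2 over the 30 arrays, and 22103 rows were measured on each. Neutrophils and microglia were highest in the markers of their label. The 13 neutrophil markers averaged 12.86 to 14.34 in KO neutrophils and 14.30 to 15.45 in WT neutrophils, against 6.09 to 9.32 in the other 4 groups. The mean of 11 microglia markers was 13.81 to 14.96 in KO microglia and 13.67 to 14.90 in WT microglia, against 8.06 to 10.63 elsewhere. Its group mean was 9.91 in KO and 9.92 in WT neutrophils, above the 8.99 and 8.53 of KO and WT macrophages. The macrophage label had no marker list of its own beyond the monocyte genes and border-associated macrophage markers below. KO microglia 2 stood apart from the other microglia, with a neutrophil marker mean of 8.30 against 6.09 to 6.86, and the KO minus WT differences it moved most are also given without it. Without it all 8 genes were still wholly higher in KO macrophages, and 6 in KO neutrophils, than in KO microglia. The closest array to WT neutrophil 4 had a correlation of 0.936 with it, against 0.976 or more for every other array. WT neutrophil 2 had a mean of 10.69 for neutrophil precursor granule genes, against 7.85 to 8.94 on the other neutrophil arrays. The arrays do not measure how many cells of a type were sorted, so fewer cells of a type and less RNA per cell cannot be told apart. Trem1 had a median level of 16.15 in KO neutrophils and 17.24 in WT neutrophils, but the deleted stretch of the gene is not named in the labels, so its level does not check the genotype.

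By group means all 8 genes were at their highest in macrophages in both genotypes. Among all rows, macrophages were the highest of the 3 cell types in 23.2% (KO) and 19.2% (WT). Ccr2, the chemokine receptor of recruited monocytes, was also brightest in macrophages, at 15.28 ± 0.35 (SD, n = 6) in KO and 15.32 ± 0.55 (n = 3) in WT cells. It was lower in neutrophils, at 10.67 ± 1.41 (n = 5) in KO and 8.59 ± 1.05 (n = 4) in WT, and lowest in microglia, at 6.39 ± 1.42 (n = 6) in KO and 5.35 ± 0.18 (n = 6) in WT. Of 29 measured classical monocyte genes, a list that does not hold the members, 22 were highest in KO macrophages among KO cells and 24 in WT macrophages among WT cells. Markers of other cell types were highest in macrophages by group mean as well. The 10 border-associated macrophage markers averaged 11.86 in KO and 11.46 in WT macrophages, and 10 dendritic cell markers 9.61 and 9.81 in the same order. The 13 nonclassical monocyte genes averaged 9.21 and 9.35. Dimmer lists did so too, with 11 lymphocyte markers at 5.72 and 5.86 and 8 endothelial markers at 6.36 and 6.15. These levels are a description, since the set was put together with its levels known and Ccr2 was named after its values were seen.

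**Figure D1:**
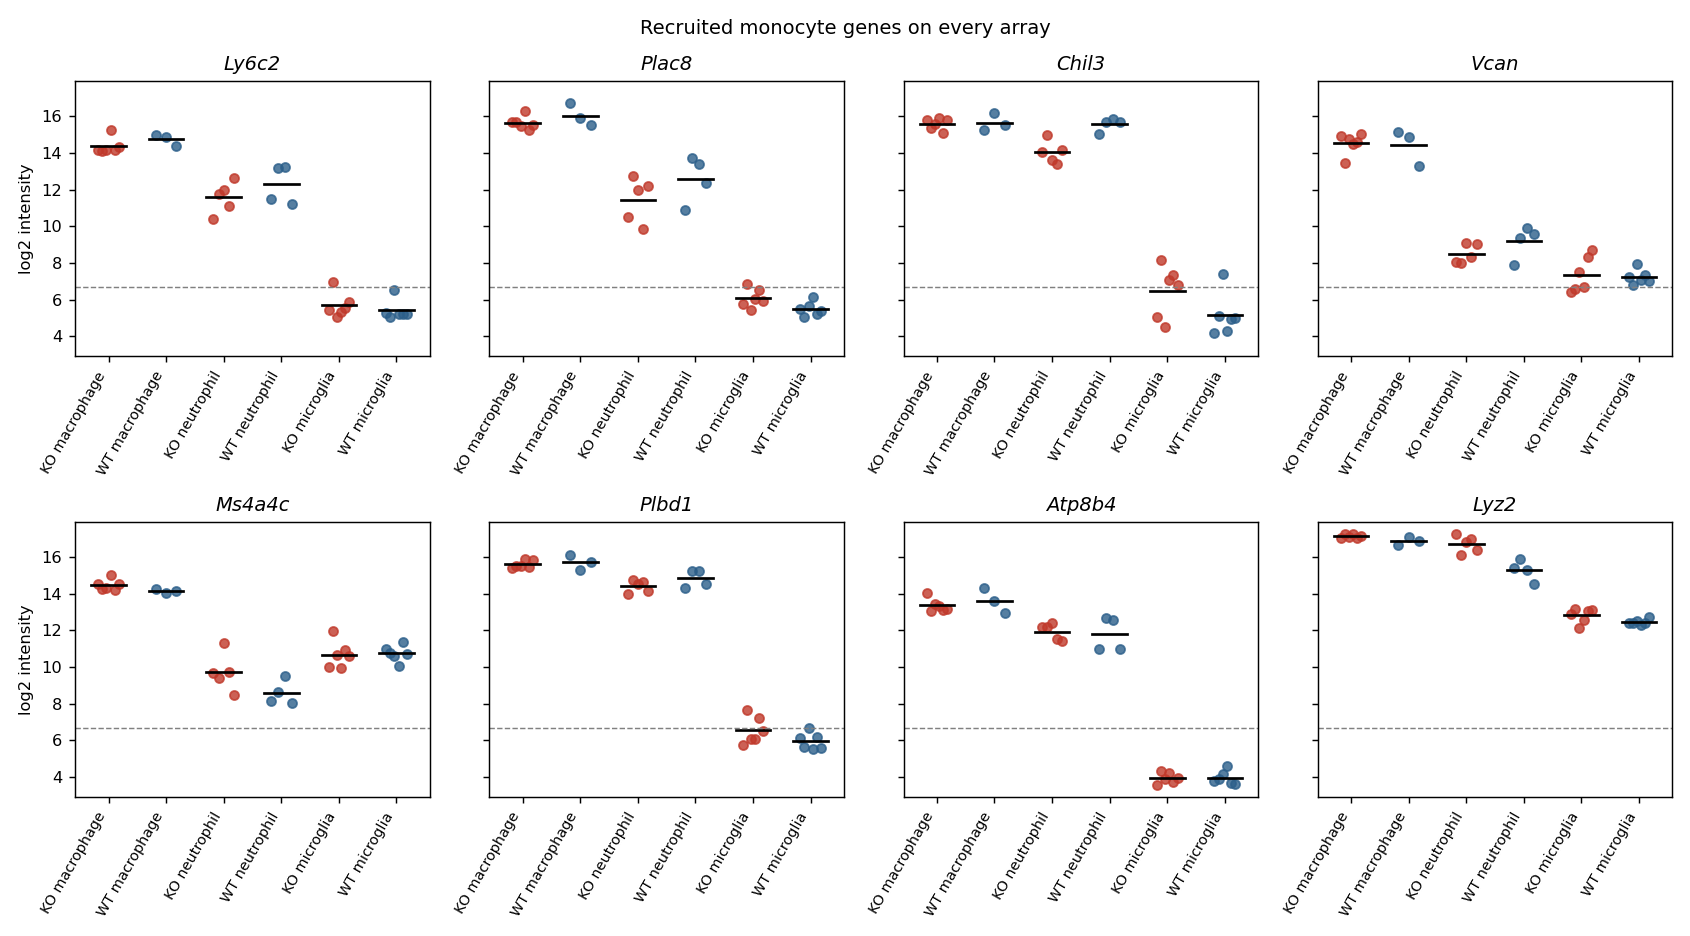
Log2 intensity of each of the 8 genes on all 30 arrays (points; red KO, blue WT) with the group mean (black bar), by cell type and genotype. The dashed line is the median of all row means, 6.69; every macrophage array lies above 12.9 for all 8 genes, and Ms4a4c alone is higher in microglia than in neutrophils.

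Against microglia, all 8 genes were wholly higher in macrophages, with no overlap of arrays in either genotype. Among all rows 7.42% (KO) and 8.79% (WT) were wholly higher in macrophages in this way. The median difference over the 8 was 8.85 in KO and 9.49 in WT on the log2 scale, against -0.21 and -0.25 over all rows. Plac8 had a macrophage-minus-microglia difference of 9.56 (SE 0.41) in KO and 10.54 (SE 0.50) in WT, and Chil3 one of 9.08 (SE 0.48) in KO and 10.48 (SE 0.59) in WT. Ms4a4c had the smallest, 3.78 (SE 0.34) in KO and 3.40 (SE 0.42) in WT, and that of Lyz2 was 4.30 (SE 0.20) and 4.40 (SE 0.24) in the same order. In microglia Ly6c2, Plac8, Chil3, Plbd1 and Atp8b4 had 11, 11, 7, 9 and 12 of 12 arrays below 6.69, the median of all row means, where a signal above background cannot be shown, so the sizes of their differences are approximate. Lyz2 and Ms4a4c were above that mark on all 12 microglia arrays, Lyz2 at 12.14 to 13.16 in KO and 12.31 to 12.74 in WT.

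Against neutrophils the 8 genes divided. Vcan and Ms4a4c were far higher in macrophages, by 6.03 (SE 0.41) and 4.74 (SE 0.36) in KO and by 5.25 (SE 0.52) and 5.57 (SE 0.45) in WT. Plac8 and Ly6c2 were intermediate, at 4.20 (SE 0.43) and 2.76 (SE 0.39) in KO and 3.45 (SE 0.54) and 2.46 (SE 0.49) in WT. The other 4 were closer to their neutrophil level. Plbd1 was higher in macrophages by 1.19 (SE 0.28) in KO and 0.87 (SE 0.35) in WT, and Atp8b4 by 1.42 (SE 0.29) and 1.83 (SE 0.37).

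The smallest differences from neutrophils were those of Chil3 in WT and Lyz2 in KO. Chil3 differed between macrophages and neutrophils by 1.53 (SE 0.50) in KO and by 0.09 (SE 0.64) in WT, where the arrays overlapped. The direction of the WT value turned with quantile normalization (-0.08) and without WT macrophage 2 (-0.17) or WT neutrophil 1. Lyz2 differed by 0.41 (SE 0.20) in KO, where the arrays overlapped, and by 1.58 (SE 0.26) in WT. In each genotype 7 of the 8 were thus wholly higher in macrophages than in neutrophils, all but Lyz2 in KO and all but Chil3 in WT, against 11% (KO) and 18.4% (WT) of all rows.

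**Figure D2:**
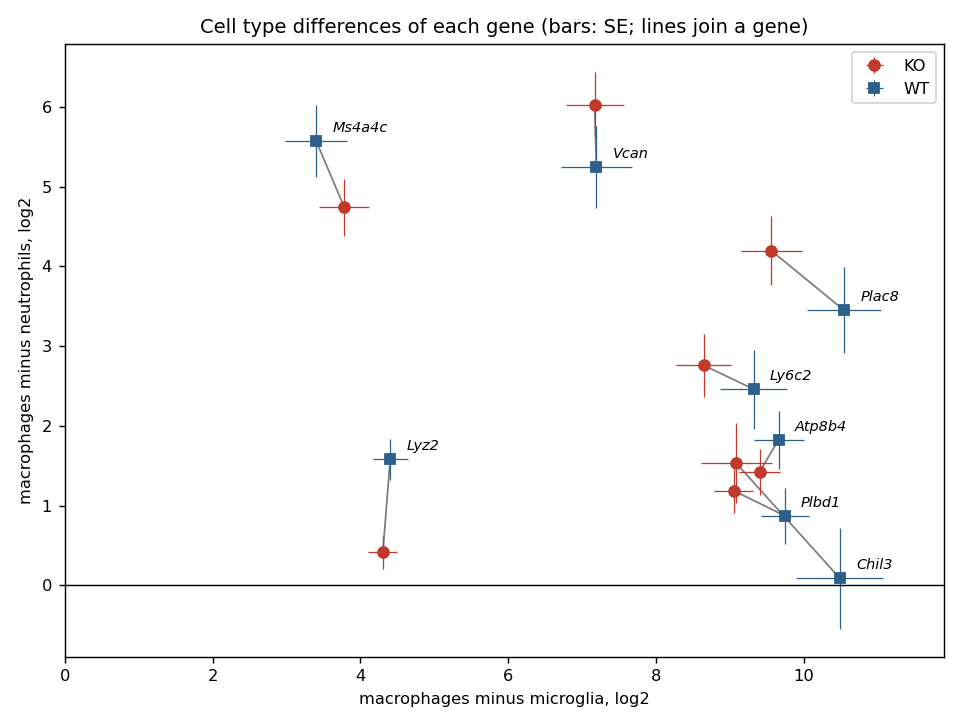
Difference of each gene between macrophages and microglia (horizontal, log2) and between macrophages and neutrophils (vertical, log2), with SE of the fit, in KO (red circles) and WT (blue squares); grey lines join a gene's KO and WT values. Vcan and Ms4a4c lie above 4.7 on the vertical axis, while Chil3 in WT (0.09) and Lyz2 in KO (0.41) lie near 0.

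Neutrophils in turn were wholly higher than microglia for 6 of the 8 genes in both genotypes, all but Vcan and Ms4a4c, against 8.36% (KO) and 12.8% (WT) of all rows. The neutrophil-minus-microglia difference was 7.98 (SE 0.29) in KO and 7.83 (SE 0.31) in WT for Atp8b4, and 7.55 (SE 0.50) and 10.40 (SE 0.54) in the same order for Chil3, both against dim levels in microglia that leave these sizes approximate. Ms4a4c ran the other way. It was at 8.47 to 11.31 in KO neutrophils, against 9.94 to 11.95 in KO microglia, and at 8.04 to 9.48 in WT neutrophils, against 10.07 to 11.35 in WT microglia, so that WT neutrophils lay wholly below WT microglia, as in 23.1% of all rows, and the KO groups overlapped. The order of the group means was therefore macrophages, neutrophils, microglia for 7 genes and macrophages, microglia, neutrophils for Ms4a4c. Within macrophages the KO and WT arrays overlapped for each of the 8, against 2.92% of all rows without overlap, and within microglia likewise, against 0.109%.

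Setting KO against WT neutrophils addresses which of these genes differ with the loss of TREM1 in that cell type. Lyz2 and Ms4a4c rose in KO neutrophils, and the other 6 genes did not pass the test. Lyz2 had log2 intensities of 17.23, 16.13, 16.83, 16.97 and 16.39 in KO neutrophils, against 15.41, 15.89, 15.30 and 14.52 in WT neutrophils. Every KO array was above every WT array, as in 5.52% of all rows, and KO neutrophils reached the range of WT macrophages (16.63 to 17.09). The difference was 1.43 (SE 0.23, 95% interval 0.97 to 1.89, limma adjusted p = 6.53e-05), a 2.69-fold higher intensity. This SE rests on a spread shared by all 6 groups. The SD of Lyz2 was 0.44 in KO and 0.57 in WT neutrophils, against 0.09 to 0.40 in the other 4 groups. With any 1 of the 9 neutrophil arrays left out, the adjusted p of Lyz2 stayed between 2.6e-05 and 0.000541. A further fit took as covariate the median level of 2015 rows bright on all macrophage and microglia arrays, called broadly expressed rows. Neutrophil arrays were not used to choose these rows. With that covariate the Lyz2 difference was 0.72 and did not pass (adjusted p = 0.167). Border-associated macrophage markers were higher on the KO arrays. The increase was larger than the change in microglia by 1.07 (SE 0.30, adjusted p = 0.0311) and than that in macrophages by 1.17 (SE 0.33, adjusted p = 0.0314), and it was the only one of the 8 to pass in the second of these tests, against 6.87% of all rows. Both calls of a difference between cell types ended with that covariate (0.40, adjusted p = 0.686, against microglia; 0.43, adjusted p = 0.717, against macrophages), with quantile normalization (0.83, adjusted p = 0.0687, against microglia; 0.87, adjusted p = 0.0822, against macrophages) and without WT neutrophil 4 or KO neutrophil 1, 3 or 4. The call against microglia also ended without WT microglia 6 or KO microglia 3, and that against macrophages without WT macrophage 2 or 3, with adjusted p up to 0.0908 (limma) over these omissions. Fitting the replicate number as a block ended the call against macrophages as well.

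Ms4a4c had 9.68, 9.42, 11.31, 9.70 and 8.47 in KO neutrophils, against 8.15, 8.64, 9.48 and 8.04 in WT neutrophils. The groups overlapped, with KO neutrophil 5 below WT neutrophils 2 and 3 and KO neutrophil 3 far above the rest. The difference was 1.14 (SE 0.40, 95% interval 0.33 to 1.95; limma adjusted p = 0.0414). This call ended without any 1 of 6 of the 9 neutrophil arrays (KO neutrophil 1, 3 or 4, or WT neutrophil 1, 2 or 4), with adjusted p up to 0.147, and the difference was 0.74 without KO neutrophil 3. It also ended with quantile normalization (0.90, adjusted p = 0.116) and in a fit of the neutrophil arrays alone (adjusted p = 0.185). The change in neutrophils did not pass as different from that in microglia (1.21, SE 0.52, adjusted p = 0.157) or macrophages (0.83, SE 0.58, adjusted p = 0.371).

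Chil3 lay on the other side. It had 14.05, 14.95, 13.64, 13.39 and 14.15 in KO neutrophils, against 15.02, 15.70, 15.87 and 15.67 in WT neutrophils. Every KO array was below every WT array, as in 5.86% of all rows, although KO neutrophil 2 was within 0.1 of WT neutrophil 1. The difference of -1.52 (SE 0.56, 95% interval -2.67 to -0.38) did not pass over all rows (limma adjusted p = 0.0527). It passed with quantile normalization (adjusted p = 0.0465), a variance trend (0.048), the dimmest 25% of rows left out (0.0452) and the neutrophil arrays alone (0.0288), and its adjusted p ranged from 0.0367 to 0.12 with 1 array left out. With the covariate for broadly expressed rows the difference was -1.90 and did not pass. The change differed from that in microglia by -2.84 (SE 0.74, adjusted p = 0.02), a call that ended without KO microglia 2 and 4 together (-2.28, adjusted p = 0.0531). This call ended with the covariate too. Chil3 and Lyz2 were thus 2 of 8 genes whose change differed between neutrophils and microglia, against 5.79% of all rows.

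Plac8 had 10.50, 12.75, 11.96, 9.87 and 12.19 in KO neutrophils, against 10.90, 13.71, 13.38 and 12.34 in WT neutrophils. The groups overlapped, and replicate 1 was the lowest WT array. The difference was -1.13 (SE 0.48, limma adjusted p = 0.0907), and it passed without WT neutrophil 1 (-1.69, adjusted p = 0.00762) or without KO neutrophil 2 (adjusted p = 0.0323). Ly6c2 had 10.40, 11.78, 11.998, 11.13 and 12.66 in KO neutrophils, against 11.51, 13.19, 13.22 and 11.20 in WT neutrophils. These groups overlapped too, with a difference of -0.69 (SE 0.43, adjusted p = 0.265).

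The remaining 3 genes also overlapped between KO and WT neutrophils. Their differences were -0.68 (SE 0.45, adjusted p = 0.292) for Vcan, -0.42 (SE 0.31, adjusted p = 0.346) for Plbd1 and 0.14 (SE 0.32, adjusted p = 0.784) for Atp8b4. In total 2 of the 8 genes passed in KO neutrophils, a share of the same order as the 19.9% of all 22103 rows that passed (10.7% of all rows higher and 9.14% lower). The median difference of the 8 was -0.55, against -0.13 over all rows, and it joined 3 positive to 5 negative values. Among all rows 38.0% were positive.

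**Figure D3:**
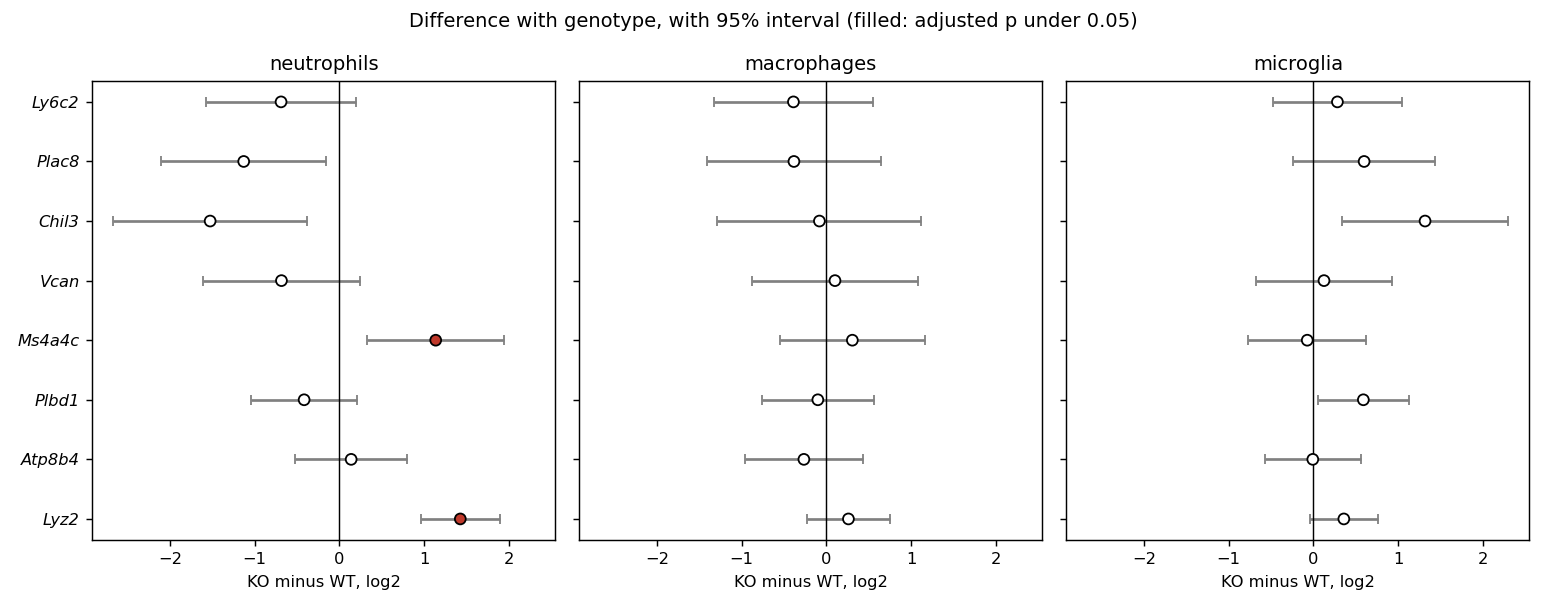
KO minus WT difference of each gene on the log2 scale with its 95% interval, in neutrophils, macrophages and microglia; filled points passed at an adjusted p under 0.05. Only Lyz2 (1.43) and Ms4a4c (1.14) in neutrophils are filled.

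In macrophages, where these genes are brightest, none of the 8 passed between KO and WT cells, against 0.00452% of all rows, and none had an unadjusted p under 0.05 (limma; adjusted p = 0.998 for each). The differences ran from -0.39 (SE 0.46) for Ly6c2 to 0.31 (SE 0.42) for Ms4a4c, with a median of -0.09. Lyz2 had a lowest, median and highest value of 17.04, 17.09 and 17.23 in KO macrophages, against 16.63, 16.86 and 17.09 in WT macrophages. Those groups overlapped, with a difference of 0.26 (95% interval -0.23 to 0.75). Chil3 differed by -0.08 (95% interval -1.29 to 1.12) and Plac8 by -0.38 (95% interval -1.41 to 0.64), so changes of about 1 log2 unit lie within the intervals of both.

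In microglia none of the 8 passed either, as none of all 22103 rows did (0%). Of the 8 differences 6 were positive, against 50.4% of all rows. Chil3 had a lowest, median and highest value of 4.50, 6.93 and 8.17 in KO microglia, against 4.21, 4.98 and 7.39 in WT microglia. Most KO arrays were above most WT arrays, the exceptions being KO microglia 3 and WT microglia 3. The difference was 1.32 (SE 0.48, limma unadjusted p = 0.0104, adjusted p = 1). Plbd1 differed by 0.59 (SE 0.26, unadjusted p = 0.0335, adjusted p = 1), and these were the only unadjusted p under 0.05 among the 8, against 2.92% of all rows. KO microglia 2 held the highest value among the 12 microglia arrays for 6 of the 8 genes, namely Chil3 (8.17), Ly6c2 (6.99), Plac8 (6.83), Plbd1 (7.67), Ms4a4c (11.95) and Lyz2 (13.16), and 10 neutrophil precursor granule genes averaged 8.10 on it, against 5.68 to 6.82 on the others. Without that array the difference in microglia was 0.98 for Chil3, 0.37 for Plbd1, 0.03 for Ly6c2 (0.28 with it) and -0.33 for Ms4a4c (-0.07 with it), none passing, and 6 of the 8 were still positive. The part of this array's neutrophil genes in the result was not tested.

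The genes listed beside the members gave counts in both directions in KO neutrophils, on lists chosen with earlier results of these arrays known. Of 29 measured classical monocyte genes 8 rose, 5 fell and 16 did not pass, with a median of 0.24. The high-affinity IgG receptor Fcgr1 rose by 1.84 (SE 0.27, limma adjusted p = 2.29e-05), the MS4A family gene Ms4a6c by 1.74 (SE 0.29, 0.00013) and the protease cathepsin S gene Ctss by 0.76 (SE 0.16, 0.00126). The interferon-induced membrane protein gene Ifitm6 fell by 2.83 on the log2 scale (SE 0.54, adjusted p = 0.000561), and Hp, the haptoglobin gene, Gsr, Mcemp1 and Napsa fell too. Ccr2 was higher by 2.08 (SE 0.60, adjusted p = 0.0158), with 8.18 to 11.70 in KO neutrophils, against 7.52 to 9.96 in WT neutrophils and 14.66 to 15.94 in macrophages of both genotypes. Leaving out WT neutrophil 4 ended that call (adjusted p = 0.0516). With 1 array left out, 7 to 8 of the list rose and 3 to 6 fell.

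Of 13 genes of nonclassical monocytes, the patrolling monocytes with low Ly6C, 2 rose and 3 fell in KO neutrophils (median -0.12). The fatty acid binding protein gene Fabp4 rose by 2.49 (SE 0.60, adjusted p = 0.00436) and the scavenger receptor Cd36 by 2.16 (SE 0.55, 0.00651). The integrin chain gene Itgal fell by 0.84 on the log2 scale (SE 0.24, adjusted p = 0.0147) and Cd300ld by 0.96 (SE 0.28, 0.015). Of 17 regulators of the monocyte lineage 3 rose and 3 fell (median -0.14). Irf8, a transcription factor needed for monocyte development, rose by 1.95 (SE 0.30, adjusted p = 5.46e-05), with 9.46 ± 0.56 (SD, n = 5) in KO neutrophils, against 7.52 ± 0.69 (n = 4) in WT neutrophils. Maf rose by 1.22 (SE 0.26, 0.00173) and Cebpa by 0.52 (SE 0.16, 0.0244), a call of Cebpa that ended without WT neutrophil 2 or KO neutrophil 1 (adjusted p up to 0.099), while Cebpd fell by 0.93 on the log2 scale (SE 0.27, 0.016). With 1 array left out, 2 to 5 regulators rose, with 5 without WT neutrophil 1 or KO neutrophil 5, and the number that fell went down to 0 in both of these lists, without KO neutrophil 1 for the nonclassical genes and without WT neutrophil 3, among others, for the regulators. In macrophages and microglia no gene of the 3 lists passed. The smallest p in macrophages were those of Napsa (-0.59) and Itga4 (-0.62) among classical genes, Cd300e (-0.59) and Ace (-0.79) among nonclassical genes, and Maf (0.89, limma adjusted p = 0.897) and Irf4 (-0.33) among regulators. In microglia they were those of Ifitm3 (0.69, SE 0.16, unadjusted p = 0.000214, adjusted p = 1) and S100a6 (0.88), of Ceacam1 (0.53) and Cd36 (0.84), and of Irf7 (0.59) and Irf9 (0.33).

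The near copies had KO minus WT differences of the same sign as their member in neutrophils, but only Chil4, Lyz1 and Lyz2 passed. Since probes may bind both genes of a pair, the shared signs are not separate evidence. Ly6c1 followed Ly6c2 most closely of all genes, with a Pearson r of 0.995 over the 30 arrays and 0.885 over deviations from the group means. In neutrophils its difference was -0.93 (SE 0.49, adjusted p = 0.178), beside -0.69 for Ly6c2. Chil4 fell in KO neutrophils by 1.70 on the log2 scale (SE 0.29, limma adjusted p = 0.000134), beside -1.52 for Chil3, and its 5 KO arrays (9.24 to 10.75) were wholly below its 4 WT arrays (10.83 to 12.15). By group means Chil4 was highest in WT neutrophils, at 11.60 ± 0.56 (SD, n = 4), against 11.38 ± 0.31 (n = 3) in WT macrophages. Chil3 was higher in WT macrophages by 0.09 (SE 0.64). The arrays of these groups overlapped for both genes, so the copies are not shown to differ in this order. In KO neutrophils Lyz1 rose, by 0.76 (SE 0.20, adjusted p = 0.00958), beside 1.43 for Lyz2.

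Among genes listed as relatives of the members, 6 of 23 measured rose and 6 fell in KO neutrophils, counting the copies above. None passed in macrophages or microglia. The 6 that fell include Plac9a and Plac9b, which share a name stem with Plac8 but were not compared with it in sequence. The MS4A genes Ms4a7 (2.08, adjusted p = 0.000258), Ms4a6c, Ms4a6d (1.39, 0.000272) and Ms4a6b (0.93, 0.0106) rose as Ms4a4c did, whereas Ms4a4b (0.37, 0.478) and Ms4a4d (-0.28, 0.358) did not pass. The lists overlap here, since Ms4a6b and Ms4a6c are also counted among the classical monocyte genes and Ms4a7 among the border-associated macrophage markers. Of the chitinase family, Chil1 (-1.49, 0.000988) fell with Chil4. Chit1 passed too (-0.48, 0.0329), but it lay below 6.69 on all arrays, where a signal above background cannot be shown, and the call ended without any 1 of 5 neutrophil arrays (WT neutrophil 3 or 4, or KO neutrophil 1, 3 or 4). Plbd2, the relative of Plbd1, rose by 1.11 (0.0154), a call that ended without WT neutrophil 2 or 3. Acan, which encodes the cartilage proteoglycan aggrecan and is a relative of Vcan, fell by 1.76 on the log2 scale (SE 0.61, adjusted p = 0.0423), but this rests on WT neutrophil 4: values were 6.76 to 8.37 in KO neutrophils, against a median of 7.89 and a highest value of 12.56 in WT neutrophils, and without that array the difference was -0.57 (adjusted p = 0.331). The number of relatives that fell was 2 without WT neutrophil 4.

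Markers of other cells moved with these changes in the neutrophil arrays. Of 13 neutrophil markers 6 fell and none rose, with a median of -0.98, and every KO array was below the WT mean for each of the 13. Of 10 markers of border-associated macrophages, the resident macrophages of the meninges and perivascular spaces, 5 rose and 1 fell, with a median of 1.12. Their mean was 11.54, 10.69, 11.38, 11.88 and 11.12 in KO neutrophils, against 10.52, 10.28, 10.36 and 9.94 in WT neutrophils, with no overlap. Among the defining genes Cbr2 (3.39, adjusted p = 0.00131) and Folr2 (2.00, 0.00837) rose, Lyve1 fell by 0.87 on the log2 scale (0.0113), and Mrc1 did not pass (0.18, 0.849). The 2015 broadly expressed rows were at 11 or above on every macrophage and microglia array, with WT means of these cells less than 1 apart. Neutrophil arrays were not used to choose them, so their level there need not measure array intensity alone. Their median level was 12.85 to 13.21 in KO neutrophils and 12.41 to 12.91 in WT neutrophils. With that level as a covariate Ms4a4c did not pass either (0.43, adjusted p = 0.828), and the covariate itself nearly separates the genotypes in neutrophils. The part of these markers in the results for the 8 genes was not tested.

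**Figure D4:**
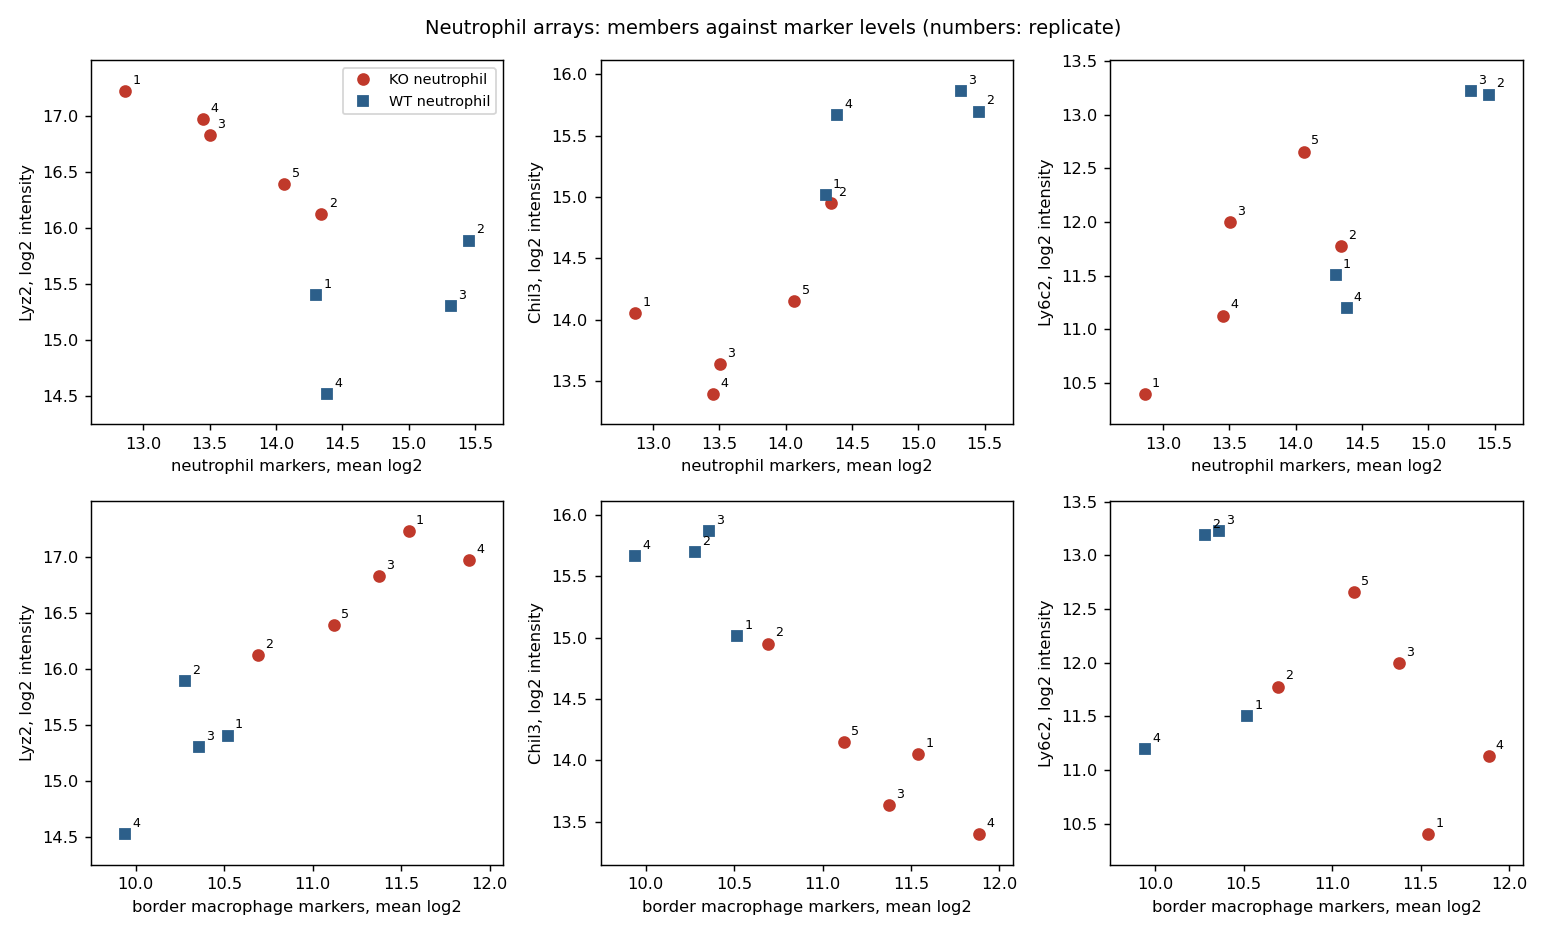
Log2 intensity of Lyz2, Chil3 and Ly6c2 on each neutrophil array (red circles KO, blue squares WT, numbered by replicate) against the mean log2 level of 13 neutrophil markers (top) and 10 border-associated macrophage markers (bottom). KO arrays lie at marker means of 12.86 to 14.34 (top) and 10.69 to 11.88 (bottom), WT arrays at 14.30 to 15.45 and 9.94 to 10.52.

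Within the neutrophil groups the members varied together only in part. Over deviations of the 9 neutrophil arrays from their group means, which share array and extraction, Ly6c2 went with the neutrophil marker mean (r = 0.87), as did Plac8 (0.84) and Plbd1 (0.77). Lyz2 went with the border-associated macrophage mean (r = 0.75) and with the level of broadly expressed rows (0.77), and Chil3 went against the border-associated macrophage mean (r = -0.83). Ms4a4c went with the mean of 10 dendritic cell markers (r = 0.78), which ranged from 6.85 to 7.47 in KO neutrophils and from 6.85 to 7.32 in WT neutrophils. For each gene named so far the measure is that with the largest r, positive or negative, and for Lyz2 the next largest is given as well. The largest for Vcan was 0.64, with the dendritic cell markers. With the mean of the classical monocyte genes r ran from -0.09 (Chil3) to 0.75 (Atp8b4). Ly6c2 and Plac8 varied together (r = 0.78), and Chil3 and Lyz2 in opposite directions (r = -0.47). These were the highest and lowest of 28 pairs of members, of which 24 were positive, with a median r of 0.37.

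Over all 30 arrays the 28 pairs of members had a median Pearson r of 0.93, from 0.30 (Chil3 and Ms4a4c) to 0.99 (Plbd1 and Atp8b4), values that rest mostly on the gap between cell types. Over deviations from the group means the median r was 0.34, from -0.09 (Plac8 and Lyz2) to 0.72 (Ly6c2 and Plac8), with 26 of 28 pairs positive. All arrays share a chip design and normalization, so these coefficients are descriptive.

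**Figure D5:**
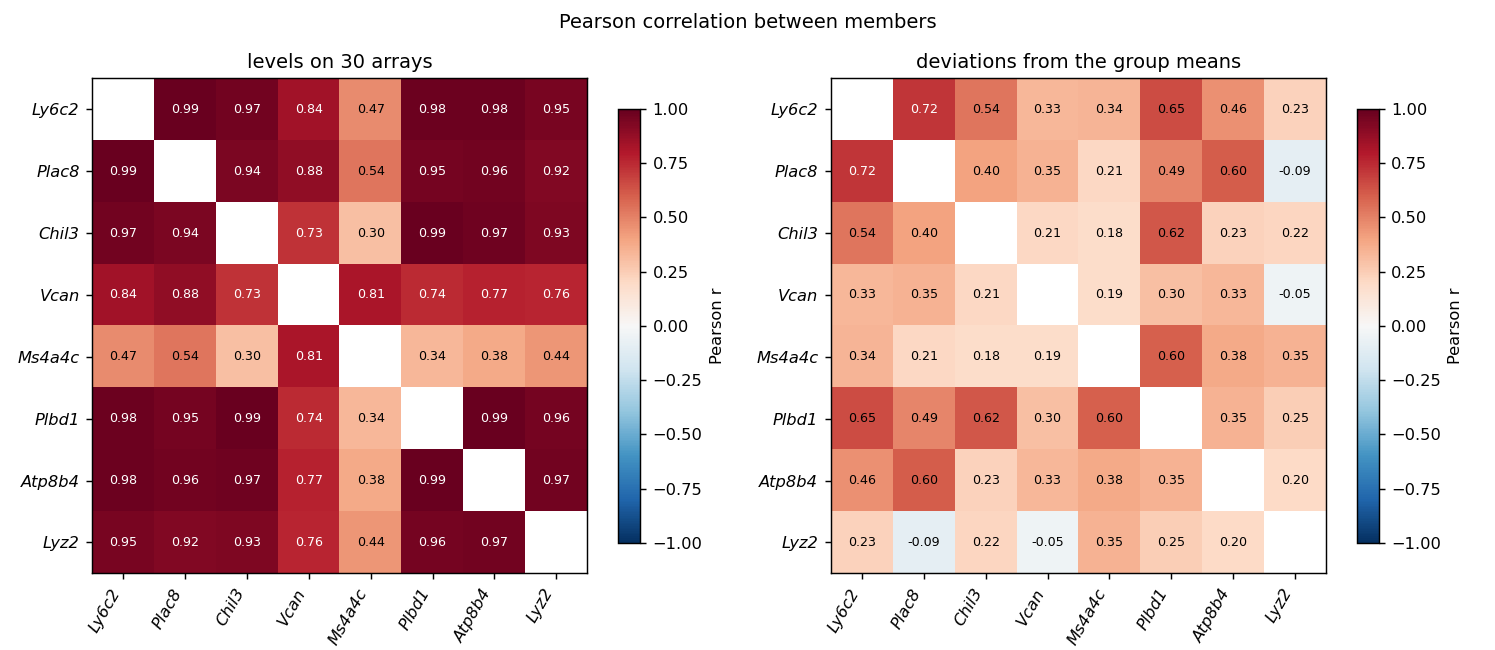
Pearson r between the 8 genes over levels on 30 arrays (left) and over deviations from the 6 group means (right), on a colour scale of -1 to 1. The median of the 28 pairs is 0.93 on the left and 0.34 on the right, and Ms4a4c has the weakest links on the left.

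The genes most like each member over the 30 arrays, among named genes, were ranked by an r that rests mostly on the same gaps between cell types. Ifitm3, of the interferon-induced transmembrane family, was among the 3 closest to both Ly6c2 (r = 0.983) and Plac8 (0.989), and these 2 members were close to each other (0.988). Plbd1, Atp8b4 and Chil3 were linked: Plbd1 was the closest gene to Chil3 (r = 0.988) and to Atp8b4 (0.991), and the matrix glycoprotein gene Emilin2 was the closest to Plbd1 (0.992) and the second closest to Atp8b4 (0.986). S100a6, which encodes a calcium-binding protein, was near both Plbd1 (0.991) and Chil3 (0.982). Sirpb1c (0.984, near Chil3) and Tgfbi (0.984, near Atp8b4) completed these sets.

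Vcan was closest to Jarid2, a subunit of Polycomb complexes (r = 0.975, and 0.738 within groups), then to Ms4a8a (0.973) and the growth factor receptor Met (0.970). Ms4a4c was closest to the signalling adaptor Gab1 (0.932), the lectin receptor Clec4a3 (0.930) and the sulfatase Sulf2 (0.929), all lower than the closest genes of the other 7. Lyz2 was closest to Cd93 (0.983), Iqgap2 (0.979) and the coagulation factor VII gene F7 (0.978). Within groups these coefficients were smaller, at 0.129 for Ms4a4c with Gab1 and -0.003 for Atp8b4 with Emilin2, and 0.703 for Lyz2 with Cd93.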

How the data were processed

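RNA of the sorted cells was hybridised to Clariom HT mouse arrays (Affymetrix). The deposited intensity values were made by the authors with RMA, per the submitters' processing notes, and its version and the arrays normalized together are not given in the sources used here. Per the labels, 0.6 to 0.8 ng of RNA with an integrity number above 7.5 entered the assay. Log2 was taken without a pseudocount of 22103 rows on 30 arrays. Of these rows 19508 had 1 symbol, each matched by gene number to RefSeq (GRCm38.p6), and 2595 were not in the annotation. The brightest row stood for a gene.

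The 30 arrays entered a single limma model (version 3.58.1, R 4.3.3) with 1 mean for each of the 6 groups (24 residual degrees of freedom), and p-values were adjusted by Benjamini-Hochberg over all rows, with a threshold of 0.05. The fit was tested on simulated data. Members, lists and tests were chosen with earlier results of these data known, so their p-values are no independent evidence. Beside the 8 members, the text names the 3 genes closest to each by Pearson r, the 4 genes of smallest p per monocyte list in neutrophils and 2 in the other cells, and sequence relatives. Ccr2 and genes that complete small counts were named after their values were seen. Promoter alignments used Biopython and figures matplotlib.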

Additional observations from a re-analysis of the deposited data

Results flagged for a closer look

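Of 40 sets of 1 gene in 1 group of 4 or more arrays, 4 held an array far from the others by Dixon's test, where chance gives about 2. Ly6c2 was at 15.22 in KO macrophage 4, against 14.32 in the nearest other KO macrophage array. Ly6c2 was at 6.55 and Chil3 at 7.39 in WT microglia 3, against 5.26 and 5.13 in the nearest other WT microglia arrays, so the same array stood out for both genes. Vcan was at 13.42 in KO macrophage 2, against 14.49 in the nearest.

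The change with genotype differed between cell types for 2 genes in the limma fit. Chil3 differed by -2.84 between neutrophils and microglia, with opposite signs in these cells (-1.52 and 1.32). Lyz2 differed by 1.07 between neutrophils and microglia and by 1.17 between neutrophils and macrophages.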

How the results depend on the processing

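With quantile normalization 1 member differed between neutrophils and microglia in its change with genotype (2 in the fit described above) and 0 between neutrophils and macrophages (1 above), and Atp8b4 turned in neutrophils (-0.048) and microglia (0.0016), as did Chil3 between WT macrophages and WT neutrophils (-0.080). Array weights also turned Atp8b4 in neutrophils (-0.0015) and microglia (0.013). With the covariate for broadly expressed rows 0 members passed in neutrophils and 0 in both differences between cell types, 474 of all rows passed in neutrophils and 3 in macrophages, and Vcan turned in neutrophils (0.50). In fits of only the arrays of a cell type 1084 rows passed in neutrophils and 9 in macrophages, but no member count moved by over 1.5 times. Without KO microglia 2 and 4, chosen after the data were seen, 1 row passed in microglia and 1 member differed between neutrophils and microglia. Centring arrays on their median moved the median of all rows in neutrophils to -0.007, against -0.13, and the share of higher calls to 71.6%, against 54.0%. The causes were not tested.

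Same-numbered arrays showed little shared deviation, with correlations of -0.16 to 0.16 within a genotype and -0.20 to 0.26 between genotypes. Such values cannot show whether same-numbered arrays came from the same mouse, which the labels do not say. With the replicate block 2 members and 4340 rows passed in neutrophils, 0 members differed between neutrophils and macrophages (Lyz2 1.16, adjusted p = 0.0553), and Vcan turned in macrophages (-0.14). With 1 array left out, 1 to 4 members and 2883 to 5557 rows passed in neutrophils, 0 to 9 rows in macrophages and 0 to 1 in microglia; 1 to 3 members differed between neutrophils and microglia and 0 to 1 between neutrophils and macrophages. Single genes that turned ranged, in neutrophils, from -0.14 to 0.44 (Atp8b4); in macrophages from -0.29 to 0.18 (Chil3), -0.48 to 0.46 (Vcan), -0.32 to 0.10 (Plbd1) and -0.60 to 0.091 (Atp8b4); in microglia from -0.14 to 0.32 (Vcan), -0.33 to 0.075 (Ms4a4c) and -0.077 to 0.12 (Atp8b4); and between WT macrophages and WT neutrophils from -0.17 to 0.29 (Chil3). Of the 24 closest genes 9 were shared with Spearman's rho and 4 with deviations from group means. Omitting arrays for the listed relatives and markers was chosen after the data were seen. Each member has 1 row, so averaging rows changed nothing.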
